A study of Homo sapiens and Mus musculus with 26 samples.

Results

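2102EP cells, a human embryonal carcinoma line derived from a testicular germ cell tumor (TGCT), were compared after 4 days with 5 µM perfluorooctanesulfonic acid (PFOS) and after 4 days with the vehicle control. PFOS is a perfluorinated surfactant that persists in the body. The comparison holds every named gene with at least 0.25 CPM (reads scaled to the size of the library) in 2 or more of the 4 libraries, and these were 16694 of 16694 named genes in the table. The threshold removed no gene, since the lowest member had a second-highest deposited level of 0.257 CPM. The deposited levels carry a small prior count, and 7 of the members lie under 0.25 CPM on their reads alone.

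The labels call the line EP, and they title the vehicle controls DMSO. Of the 26 libraries in the series, 2 are EP controls and 2 are EP cells with 5 µM PFOS. A further 2 are EP cells with 10 nM PFOS, which shared the estimate of spread and are given as values for reference. All 6 come from a single line in culture, so they describe this line and not tumors. The methods call the replicates biological, without saying how the cultures were set up, and the labels only number them. The p-values measure the spread between these libraries.

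Embryonal carcinoma cells are the malignant counterpart of pluripotent embryonic cells. They are held in an undifferentiated state by the transcription factors POU5F1, SOX2 and NANOG, they carry high levels of the de novo DNA methyltransferase DNMT3B, and polycomb complexes keep developmental genes silent in such cells through methylation of histone H3 at lysine 27. PFOS resembles a fatty acid in shape and is known as a ligand of the peroxisome proliferator-activated receptor alpha (PPARA) in liver.

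The libraries held 33.3 and 39.1 M reads on genes in the controls and 43.5 and 48.1 M with 5 µM PFOS, so depth moved with the treatment. With reads thinned to the smallest library, 4222 genes passed the test described below, in place of 4484. The cause of the difference in depth was not tested. The first principal component held 46.5% of the variance and separated the controls from all 4 PFOS libraries. Of 14 markers of embryonal carcinoma and pluripotency 14 were in the table, among them POU5F1, which stood at 10.17 and 10.14 log2 CPM in the controls and 10.00 and 10.03 with 5 µM PFOS. Of 25 markers of other cells 11 were in the table. Of the seminoma markers 4 of 5 were present, among them TFAP2C (7.06 and 7.08 log2 CPM in the controls and 6.91 and 6.92 with 5 µM PFOS) and PDPN (6.79 and 6.80 log2 CPM in the controls and 6.76 and 6.74 with 5 µM PFOS), and SOX17 was absent, of the yolk sac or endoderm markers 1 of 5, of the trophoblast markers 2 of 4, of the Sertoli or Leydig cell markers 2 of 5, of the blood and endothelium markers 1 of 3 and of the fibroblast markers 1 of 3 (COL1A1, 6.24 and 6.26 log2 CPM in the controls and 6.09 and 6.08 with 5 µM PFOS). In a bulk culture, fewer cells of a type and less RNA per cell cannot be told apart.

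With 5 µM PFOS, many genes differed from the controls by small amounts. In limma's moderated test with Benjamini-Hochberg adjustment, 4484 of 16694 genes (26.9%) passed an adjusted p of 0.05. Of these 2207 (13.2% of genes) were higher and 2277 (13.6%) were lower. The median size of a called difference was 0.27 on the log2 scale among the higher genes and 0.29 among the lower genes, and only 34 higher and 94 lower genes differed by 2-fold or more. With the test set against a 1.2-fold change, 71 genes were higher and 223 lower. Scaling by library totals alone in place of the deposited factors moved the split to 3245 higher and 1706 lower, or 65.5% higher against 49.2%, with a shift of 0.047 in the median log2 fold change over all genes. An unadjusted p under 0.05 was found for 37.7% of genes. In 61.8% of genes the 2 groups of libraries did not overlap (31.4% higher and 30.4% lower with 5 µM PFOS), which is the background for each such statement below.

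**Figure D1:**
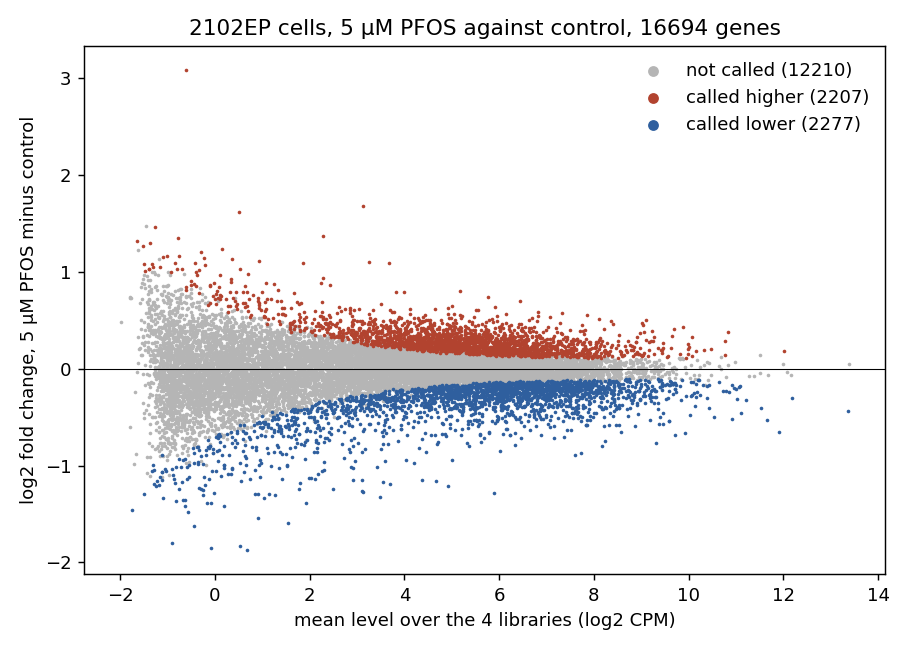
Each point is a gene, with its mean level over the 2 control and the 2 5 µM PFOS libraries (log2 CPM) on the x axis and its log2 fold change, 5 µM PFOS minus control, on the y axis. The 2207 genes called higher are red, the 2277 called lower are blue, and the others are gray, and most called genes lie within 1 log2 unit of 0.

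The number of calls depended on the treated libraries. It was 2718 without 5 µM replicate 1 and 2223 without 5 µM replicate 2, against 4214 and 5051 without control replicate 1 or 2. Of the 4484 called genes 1824 were called in all 4 of these fits, and 0 changed sign in any of them. Where both treated libraries lie on 1 side of both controls, leaving out a library cannot change the sign, so the signs say little about stability. A single value compared between 2 and 2 libraries cannot reach a two-sided exact permutation p below 0.333, so that the calls rest on the spread that limma shares across genes.

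The largest changes were ranked by rule among called genes averaging 1 log2 CPM or more, with both treated libraries on 1 side of both controls. The 12 that rose most were EEF1A1P5, RPL22P1, LDHAP4, HSPE1, PDF, RPS14P1, NPPB, CLDN4, RPLP0P6, EIF1AXP1, GPR89A and SCOC. Of these 12 genes 6 are processed pseudogenes, the reverse-transcribed copies of abundant mRNAs. EEF1A1P5, a copy of the translation elongation factor EEF1A1, stood at 2.27 and 2.31 log2 CPM in the controls and 4.05 and 3.90 with 5 µM PFOS (log2 fold change 1.68 ± 0.088 (SE), adjusted p = 6.92e-09). The 10 nM libraries, at 4.03 and 4.03, lay beside the 5 µM libraries, which the rule required to lie above both controls. The parent gene EEF1A1, chosen for its relation to this pseudogene, stood at 11.93 and 11.98 log2 CPM in the controls and 11.98 and 12.04 with 5 µM PFOS (0.053 ± 0.044, adjusted p = 0.406), a difference that did not pass the test.

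The pseudogene and its parent are shown because they differ in so few letters. EEF1A1P5 lies on chromosome 9 (chr9:133019486-133020874, plus strand, GENCODE 44 on GRCh38), and EEF1A1 lies on chromosome 6 (chr6:73489308-73525587, minus strand). The 1389 bases of the pseudogene transcript matched the EEF1A1 mRNA at 1385 positions (99.7%) without a gap, with 4 differing positions and an identical run of up to 425 bases. In the stretch of 180 bases with the most differences, bases 915 to 1094 of the pseudogene transcript, 2 positions differ, and they are in capitals below.

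EEF1A1P5: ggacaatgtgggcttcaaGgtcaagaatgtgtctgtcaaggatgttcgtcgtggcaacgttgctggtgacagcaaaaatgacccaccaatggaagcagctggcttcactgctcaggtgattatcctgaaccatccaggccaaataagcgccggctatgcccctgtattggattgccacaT

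EEF1A1: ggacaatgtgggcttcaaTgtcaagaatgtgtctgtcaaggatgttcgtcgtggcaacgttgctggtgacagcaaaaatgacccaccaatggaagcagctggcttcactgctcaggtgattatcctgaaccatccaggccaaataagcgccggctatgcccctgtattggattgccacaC

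Over most of its length a read from such a pair fits both genes, and the assignment by the authors' counting can split it, so that the levels of processed pseudogenes are uncertain. For the other 5 higher pseudogenes the parents moved less. RPL22P1 rose (1.37 ± 0.18, adjusted p = 3.16e-05) while its parent RPL22, a ribosomal protein gene, had a log2 fold change of -0.053 ± 0.047, adjusted p = 0.452. LDHAP4 rose by 1.10 and its parent, the lactate dehydrogenase gene LDHA, had 0.089, which was not called. RPS14P1 rose by 0.94 and RPS14 by 0.28. EIF1AXP1 rose by 0.87 and EIF1AX, a translation initiation factor, by 0.26. RPLP0P6 rose by 0.87, whereas RPLP0 fell (-0.13), a call lost without either 5 µM library (-0.11 and -0.15). The parents were picked for their relation to the pseudogenes after the values were seen.

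Of the 6 higher genes that are not pseudogenes, HSPE1 changed most. It encodes the mitochondrial co-chaperonin HSP10, and its partner chaperonin HSP60 is encoded by HSPD1, the neighbouring gene on the other strand. HSPE1 went from 3.04 and 3.22 to 4.21 and 4.23 log2 CPM (log2 fold change 1.09 ± 0.086 (SE), adjusted p = 2.53e-07). HSPD1 went from 9.41 and 9.55 to 9.84 and 9.93 log2 CPM (log2 fold change 0.41 ± 0.047 (SE), adjusted p = 1.03e-05). Each treated library lay above each control for HSPD1 as well, which the rule required of HSPE1. HSPE1 shares its exons with the readthrough gene HSPE1-MOB4, and its level is uncertain for that reason. The start sites of the pair are separated by 104 bases on chromosome 2 (chr2:197500275-197500378, GRCh38.p14, RefSeq, shown on the plus strand of HSPE1), which are printed because both genes that start there rose. The capitals mark CACGTG, the letters of an E-box, searched on both strands.

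HSPE1 and HSPD1: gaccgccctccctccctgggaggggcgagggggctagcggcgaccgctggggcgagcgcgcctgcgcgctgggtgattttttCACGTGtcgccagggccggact

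CACGTG was found in the last 104 bases before the start in 3.58% of 27305 promoters. Neither GAANNTTC nor TTCNNGAA, which are pairs of heat shock element units, was in these 104 bases, and the 250 bases before the start held them in 5.85% and 6.72% of promoters.

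The remaining higher genes were less abundant, apart from SCOC. SCOC, a short coiled-coil protein of the Golgi, went from 4.75 and 4.77 to 5.55 and 5.59 log2 CPM (log2 fold change 0.81 ± 0.054 (SE), adjusted p = 7.13e-08). CLDN4, the tight junction protein claudin 4, went from 1.85 and 1.75 to 2.67 and 2.70 log2 CPM (log2 fold change 0.88 ± 0.12 (SE), adjusted p = 4.36e-05). Both genes had pairs of libraries that hardly differed within a group. NPPB, the precursor of brain natriuretic peptide, went from 0.59 and 0.68 to 1.38 and 1.66 log2 CPM (0.89 ± 0.17, adjusted p = 0.00105). PDF, a mitochondrial peptide deformylase, went from 1.46 and 1.17 to 2.68 and 2.13 log2 CPM (1.09 ± 0.18, adjusted p = 0.000303) and overlaps the gene COG8. GPR89A went from 0.97 and 0.90 to 1.91 and 1.59 log2 CPM (0.81 ± 0.17, adjusted p = 0.00183) and has a near-identical copy, GPR89B, so its level is uncertain too.

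**Figure D2:**
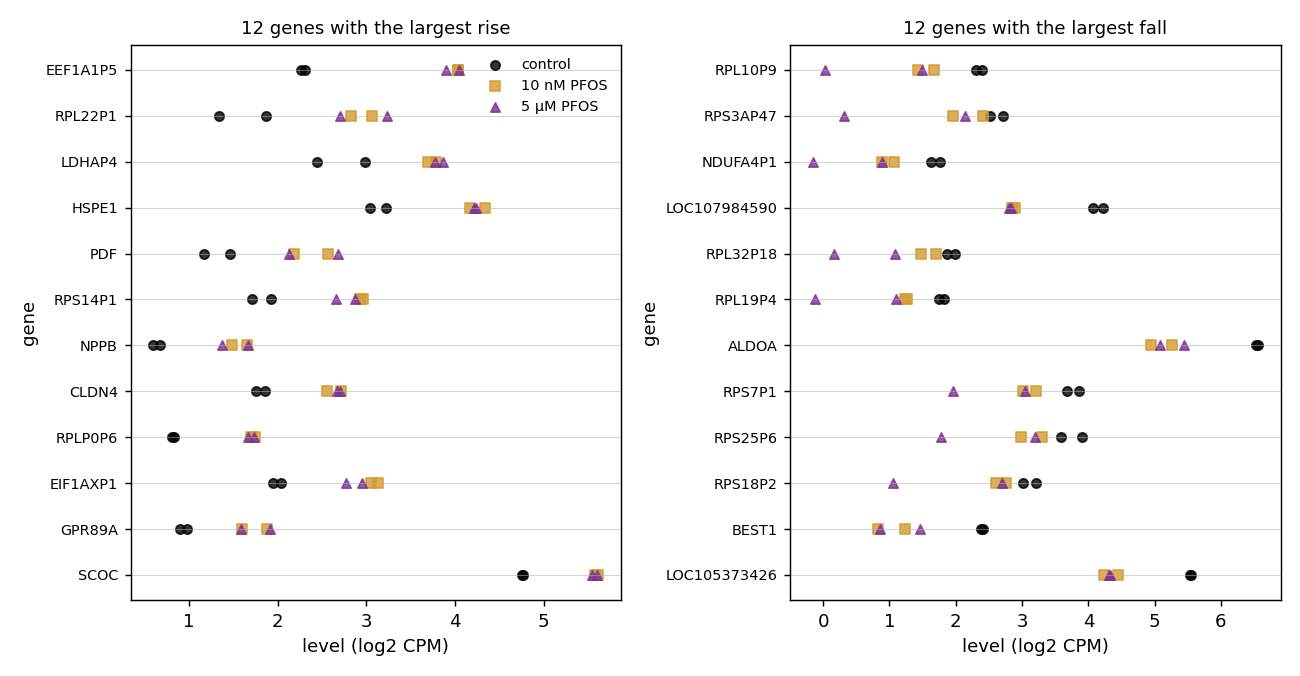
The levels (log2 CPM, x axis) of the 12 genes with the largest rise and the 12 with the largest fall are drawn for each of the 6 EP libraries, with circles for controls, squares for 10 nM PFOS and triangles for 5 µM PFOS. Only called genes averaging 1 log2 CPM or more were ranked, and the rule required the triangles to lie on 1 side of the circles. In the right panel 1 triangle lies far to the left of the other for RPL10P9, RPS3AP47 and other ribosomal protein pseudogenes.

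By the same rule, among genes averaging 1 log2 CPM or more, the 12 that fell most were RPL10P9, RPS3AP47, NDUFA4P1, LOC107984590, RPL32P18, RPL19P4, ALDOA, RPS7P1, RPS25P6, RPS18P2, BEST1 and LOC105373426. The pattern among the 8 pseudogenes here differed from that of the higher genes, since 5 µM replicate 2 was far below replicate 1. RPL10P9 stood at 2.39 and 2.31 log2 CPM in the controls and 1.49 and 0.029 with 5 µM PFOS (-1.59 ± 0.30, adjusted p = 0.000878), and without 5 µM replicate 2 its log2 fold change was -0.86. RPS3AP47 stood at 2.52 and 2.72 log2 CPM in the controls and 2.13 and 0.32 with 5 µM PFOS (-1.39 ± 0.35, adjusted p = 0.00793). Without that library the change of RPS3AP47 was -0.48 and that of RPS18P2 -0.42 in place of -1.24, and neither was called. NDUFA4P1, RPL32P18, RPL19P4, RPS7P1 and RPS25P6 were still called without it, at -0.81, -0.85, -0.69, -0.73 and -0.56 in place of -1.33, -1.30, -1.30, -1.27 and -1.26. Without 5 µM replicate 1, these 8 fell by more, from -1.85 for NDUFA4P1, -1.76 for RPL32P18, -1.82 for RPS7P1, -1.91 for RPL19P4, -1.97 for RPS25P6 and -2.06 for RPS18P2 to -2.30 for RPS3AP47 and -2.32 for RPL10P9.

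Of the other 4 lower genes, BEST1 and ALDOA also had their lower value in 5 µM replicate 2, with a smaller gap, and the treated libraries of the other two hardly differed. ALDOA, the fructose-bisphosphate aldolase of glycolysis, went from 6.56 and 6.52 to 5.44 and 5.09 log2 CPM (log2 fold change -1.28 ± 0.098 (SE), adjusted p = 1.92e-07). BEST1, a chloride channel, went from 2.38 and 2.41 to 1.46 and 0.85 log2 CPM (-1.24 ± 0.19, adjusted p = 0.000206). LOC105373426, a long noncoding RNA, went from 5.54 and 5.54 to 4.32 and 4.33 log2 CPM (-1.22 ± 0.071, adjusted p = 2.47e-08), and LOC107984590 went from 4.07 and 4.22 to 2.80 and 2.84 log2 CPM (-1.32 ± 0.091, adjusted p = 9.12e-08). For ALDOA, which overlaps another annotated gene on its strand, the change was -1.46 to -1.10 over the fits that left out a library.

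Over all 98 ribosomal protein pseudogenes in the table, 8 were called higher and 48 lower, and the median log2 fold change was -0.72 against 0.0054 over all genes. The median difference from the control mean was -0.30 in 5 µM replicate 1 and -1.16 in 5 µM replicate 2, and it was -0.28 and -0.36 in the 10 nM libraries. Without 5 µM replicate 2, 6 were higher and 19 lower, with a median of -0.30. Without the variance trend 6 were higher and 3 lower, against 690 and 877 over all genes. These pseudogenes took up 0.0713% of the reads in 5 µM replicate 1 and 0.0584% in replicate 2, against 0.0708% and 0.0735% in the controls. The other 590 pseudogenes had 43 higher and 74 lower calls and a median of -0.090. Leaving out all pseudogenes left 2236 genes called higher and 2212 lower of 16006.

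Of the 79 ribosomal protein genes themselves 36 (45.6%) were called higher and 15 (19.0%) lower, with a median of 0.080. RPL28 of the large subunit went from 9.74 and 9.64 to 8.99 and 8.86 log2 CPM (log2 fold change -0.76 ± 0.046 (SE), adjusted p = 3.85e-08), and RPL11, which also binds MDM2, fell (-0.50 ± 0.039, adjusted p = 2.67e-07). In the other direction RPL15 rose by 0.51, RPS9 by 0.49, RPS18 by 0.47, RPS7 by 0.37 and RPL10 by 0.33. Subunits of a single particle thus lay on both sides, and without 5 µM replicate 2 the counts were 29 higher and 12 lower. Reads of these genes too can be shared with their many copies.

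**Figure D3:**
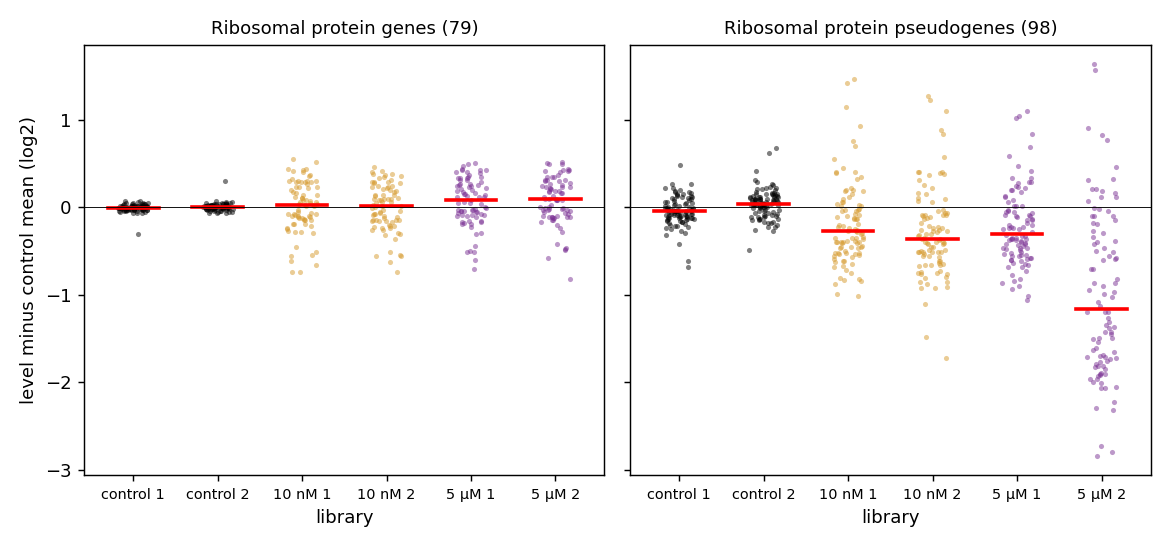
Each point is a ribosomal protein gene (left, 79) or ribosomal protein pseudogene (right, 98), and the y axis gives its level minus the mean of its 2 controls (log2) in each of the 6 EP libraries on the x axis, with the median as a red bar. The median of the pseudogenes is -1.16 in 5 µM replicate 2 and -0.30 in 5 µM replicate 1, while that of the genes is 0.095 and 0.080.

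The direction of the calls moved with the base composition of the transcripts. Among protein-coding genes ranked by the GC content of their longest transcript, 26.7% of the lowest quintile were called higher and 6.83% lower, whereas 9.47% of the highest quintile were called higher and 20.6% lower. The median GC content was 43.2% for the 2078 higher genes with a transcript, 53.1% for the 2014 lower genes and 48.4% for genes not called. The median GC content of the promoter was 65.3% for the higher and 65.0% for the lower genes. Level moved with the calls as well, since 30.3% of the quintile with the highest level were lower and 18.2% higher. After a smooth trend on GC content was taken out of each library, 2508 genes were higher and 2681 lower, against 2209 and 2228 over the same 15494 genes without this step. The part of GC content in the single results was not tested.

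**Figure D4:**
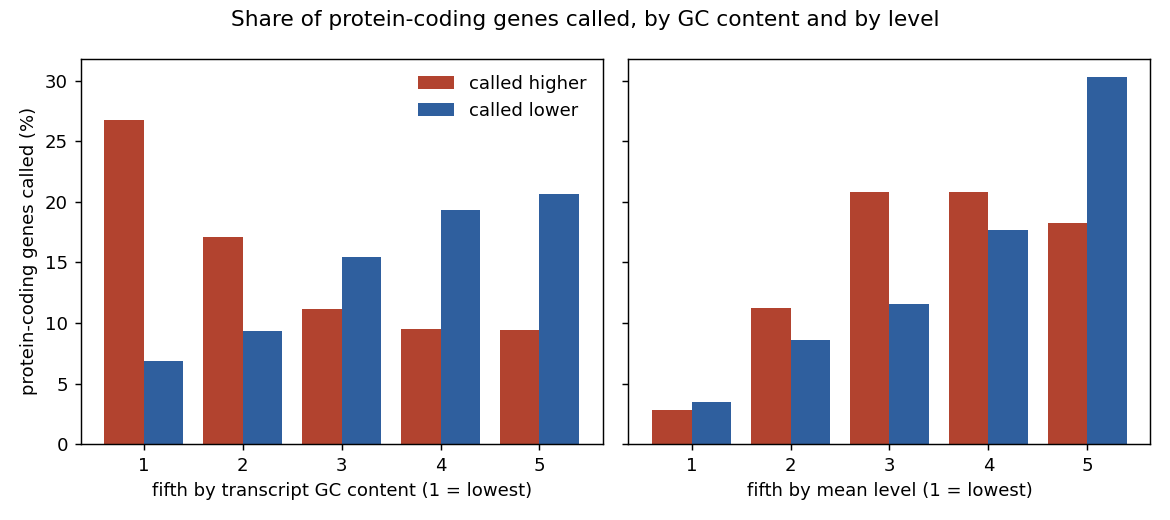
Bars give the percentage of protein-coding genes called higher (red) or lower (blue) in each quintile by transcript GC content (left) and by mean level (right), from the lowest (1) to the highest (5). The red bars fall from 26.7% to 9.47% and the blue bars rise from 6.83% to 20.6% across the GC quintiles.

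A total of 31 gene lists were then described, and 998 distinct members were in the table. Of these 232 were called higher and 149 lower, or 38.2% called against 26.9% of all genes. Mitochondrially encoded subunits, the 32nd list, were not analysed here. Without the variance trend 135 list members were called in place of 381, against 1567 in place of 4484 over all genes. In that fit the higher and lower counts were 3 and 1 for DNA replication and 2 and 0 for GPI anchor synthesis. They were 0 and 1 for early lineages and 0 and 1 for fatty acid synthesis. The integrated stress response list had 2 and 2 in place of 10 and 2. NRF2 targets had 1 and 3 in place of 8 and 5, and glycolysis genes 1 and 3 in place of 7 and 5. Germline genes had 0 and 1 in place of 1 and 0, and interferon-induced genes 2 and 1 in place of 3 and 4. Without 5 µM replicate 1 the list members called were 233 in place of 381, and without 5 µM replicate 2 they were 219. Below, counts are given as higher and lower without each library that moved a list's calls by over 1.5 times, and a value given alone for a gene is its log2 fold change, 5 µM PFOS minus control. The background for each list is 13.2% higher and 13.6% lower over all genes, but these shares moved with level. From the lowest to the highest level quintile of protein-coding genes, 2.85%, 11.3%, 20.8%, 20.8% and 18.2% were higher. Lower calls made up 3.52%, 8.58%, 11.6%, 17.7% and 30.3%. The highest quintile starts at 6.41 log2 CPM. The median level was 7.73 for the pluripotency genes and 8.92 for the ribosomal protein genes, and the part of level was not tested. Scaling by library totals moved most lists toward higher calls, and counts under it are given where the share of higher calls moved by over 10 percentage points.

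**Figure D5:**
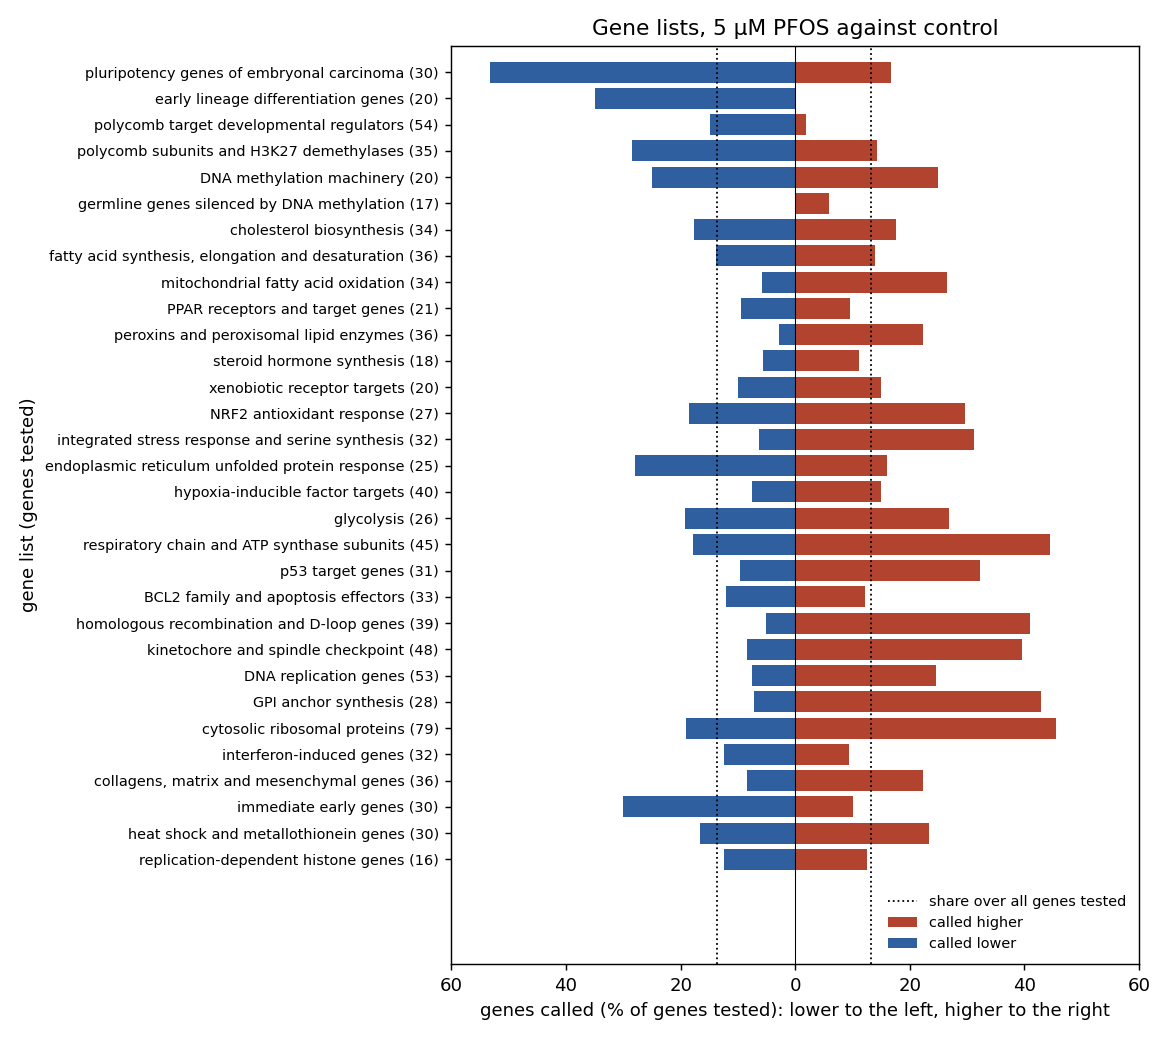
For each gene list, with the number of genes tested in parentheses, the bar to the right gives the percentage of members called higher (red) and the bar to the left the percentage called lower (blue) with 5 µM PFOS. The dotted lines mark 13.2% and 13.6%, the shares over all genes, and the blue bar of the pluripotency genes and the red bars of the ribosomal protein, respiratory chain, GPI anchor and recombination lists extend farthest past them.

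Of 30 pluripotency genes 16 were lower and 5 higher, with a median of -0.15, and without 5 µM replicate 2 the counts were 10 lower and 3 higher. UTF1, a chromatin factor of pluripotent cells, went from 8.17 and 7.94 to 7.22 and 7.11 log2 CPM (log2 fold change -0.89 ± 0.060 (SE), adjusted p = 7.71e-08). ESRG, a long noncoding RNA driven by an endogenous retrovirus in such cells, went from 12.27 and 12.22 to 11.61 and 11.57 log2 CPM (log2 fold change -0.66 ± 0.043 (SE), adjusted p = 6.52e-08). For each of these genes both treated libraries lay below both controls. Without the variance trend 4 of the 30 pluripotency genes were called lower and 0 higher.

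The core regulators moved by less, and not together. SOX2 fell from 8.30 and 8.30 to 8.11 and 8.06 log2 CPM (-0.21 ± 0.039, adjusted p = 0.00076), while NANOG rose from 7.85 and 7.85 to 8.08 and 8.05 log2 CPM (0.21 ± 0.039, adjusted p = 0.000835). POU5F1 fell by 0.14 (adjusted p = 0.0125), a call that was lost without 5 µM replicate 1 (-0.13) or replicate 2 (-0.15) and with scaling by library totals (-0.095). LIN28A, SALL4, PRDM14 and L1TD1 were not called, at 0.028, -0.00099, -0.027 and -0.10, and SALL4 and PRDM14 changed sign with library totals. Of the other markers DPPA4 (-0.23), TDGF1 (-0.18) and PODXL (-0.24), a membrane sialomucin, fell and kept their calls without any single library. GDF3 (-0.22) and ZFP42 (-0.24) lost theirs without 5 µM replicate 2 (-0.18 and -0.20). TNFRSF8, the CD30 antigen, fell by 0.16, a call lost without control replicate 1 (-0.11) or either 5 µM library. LEFTY1 (0.34, or 0.22 and 0.46 without control replicate 2 or 1) and TRIM71 (0.27) were among the 5 that rose.

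Of 20 genes of early lineages 0 were called higher and 7 lower in limma, with a median of -0.11. At an unadjusted p under 0.05 there were 0 higher and 7 lower, limma-voom called 0 higher and 7 lower, and without 5 µM replicate 1 limma called 0 higher and 3 lower. HOXB1, a hindbrain homeobox gene, went from 3.92 and 3.79 to 3.30 and 3.31 log2 CPM (log2 fold change -0.55 ± 0.084 (SE), adjusted p = 0.000162), HOXB2 fell by 0.46, and the neural progenitor filament gene NES by 0.21. GATA3 fell by 0.31, which was lost without control replicate 2 (-0.21) or 5 µM replicate 1 (-0.24), and ERVW-1, the syncytin gene of trophoblast, by 0.57. Of the markers of other cell types, TFAP2C (-0.16) and COL1A1 (-0.16) fell, calls that were lost without either 5 µM library (-0.16 and -0.16, -0.17 and -0.15). KIT (-0.29), PDPN (-0.044), PRDM1 (-0.20), GATA4 (-0.055), AMH (-0.052), STAR (0.0063) and PECAM1 (-0.29) were not called.

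Polycomb repressive complex 1 binds and compacts chromatin, and polycomb repressive complex 2 methylates histone H3 at lysine 27. Of 35 polycomb subunits and H3K27 demethylases, 10 were lower and 5 higher. There were 0 higher and 5 lower without 5 µM replicate 1, and 1 and 6 without 5 µM replicate 2. PCGF2, a complex 1 subunit also called MEL18, went from 7.78 and 7.68 to 7.04 and 7.02 log2 CPM (log2 fold change -0.70 ± 0.046 (SE), adjusted p = 6.45e-08). KDM6B, which removes the H3K27 methyl mark, went from 6.53 and 6.38 to 5.89 and 5.78 log2 CPM (log2 fold change -0.62 ± 0.058 (SE), adjusted p = 1.44e-06). Both treated libraries lay below both controls for these genes. JARID2 (-0.20) and PHC1 (-0.22) also fell.

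The core subunits of complex 2 moved less. The methyltransferase EZH2 went from 5.85 and 5.86 to 5.65 and 5.74 log2 CPM (-0.16 ± 0.056, adjusted p = 0.0423), and this call was lost without control replicate 2 (-0.15), without 5 µM replicate 1 (-0.12) or 2 (-0.20), in the fit of the 4 libraries alone, and with library totals (-0.11). EED, which recognises the mark, rose by 0.21, and only the fit without control replicate 2 kept the call among those that left out a library, at 0.26 against 0.16, 0.19 and 0.23 without control replicate 1 or 5 µM replicate 1 or 2. With the GC trend removed EED was at 0.069. SUZ12 was at -0.056 and not called. For the whole list, scaling by library totals gave 7 higher and 6 lower and removing the GC trend gave 2 higher and 12 lower.

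Of 54 polycomb target developmental regulators, 8 were lower and 1 higher, with a median of -0.16. EN1, an engrailed homeobox gene, went from 2.64 and 2.49 to 1.86 and 1.74 log2 CPM (-0.77 ± 0.13, adjusted p = 0.000365), and SOX9 went from 4.65 and 4.73 to 4.31 and 4.33 log2 CPM (-0.38 ± 0.068, adjusted p = 0.000651). The 1 higher member, the signaling ligand gene WNT6, went from -0.84 and 0.064 to 0.57 and 0.60 log2 CPM (0.97 ± 0.27, adjusted p = 0.0125) and was not called without control replicate 1 (0.52) or 5 µM replicate 2 (0.95). These genes had a median level of 1.87 log2 CPM, and the lower members were 14.8% against 13.6% over all genes. Among protein-coding genes of the lowest level quintile (up to 1.88 log2 CPM) 3.52% were lower and 2.85% higher. In the next quintile 8.58% were lower and 11.3% higher. Scaling by library totals gave 3 higher and 3 lower, and the counts were 1 and 2 without 5 µM replicate 1 and 0 and 4 without 5 µM replicate 2. They were also 1 and 3 with only the 4 libraries compared, 1 and 3 with reads thinned to the smallest library, 2 and 4 without control replicate 2 and 0 and 3 without the variance trend.

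DNA methylation genes split evenly, with 5 higher and 5 lower of 20 (7 and 4 with library totals, 2 and 2 without 5 µM replicate 1, 1 and 3 without 5 µM replicate 2). The de novo methyltransferase DNMT3A went from 7.84 and 7.82 to 7.60 and 7.59 log2 CPM (-0.23 ± 0.040, adjusted p = 0.000467) and the methyl-CpG binding protein ZBTB4 from 6.22 and 6.14 to 5.90 and 5.88 log2 CPM (-0.29 ± 0.052, adjusted p = 0.000522). DNMT3B fell by 0.17 and the maintenance enzyme DNMT1 by 0.12, and both calls were lost without 5 µM replicate 1 (-0.16 and -0.12) or replicate 2 (-0.17 and -0.11). DNMT3L, their cofactor, was at 0.073 and not called. Of 17 germline genes that DNA methylation keeps silent, 1 was higher and 0 lower in limma (1 and 3 at an unadjusted p under 0.05, and 1 and 0 in limma-voom). The higher gene was TEX14, a germ cell bridge protein, which went from 0.026 and 0.50 to 0.95 and 0.93 log2 CPM and lost its call without control replicate 1 (0.44) or either 5 µM library (0.67 and 0.69). DPEP3 (-0.91) and SYCP3 (-0.55) were not called.

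Of 21 PPAR receptors and targets 2 were higher and 2 lower, and 0 were called in limma without 5 µM replicate 2. PPARA stood at 0.91 and 1.11 log2 CPM in the controls and 0.95 and 1.05 with 5 µM PFOS, with a log2 fold change of -0.0035 ± 0.18, an error within 2 times which the median called size of 0.27 would lie. PPARD stood at 4.63 and 4.58 log2 CPM in the controls and 4.46 and 4.39 with 5 µM PFOS (-0.18 ± 0.065, adjusted p = 0.0517), on the edge of the threshold. PPARG was not in the table. UCP2, a mitochondrial carrier, fell by 0.34 and FABP3, a fatty acid binding protein, by 0.43, and both were lost without control replicate 1 (-0.21 and -0.37) or 5 µM replicate 2 (-0.22 and -0.40). TXNIP, a thioredoxin inhibitor, rose by 0.37 and was lost without 5 µM replicate 2 (0.22).

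Of 34 genes of mitochondrial fatty acid oxidation 9 were higher and 2 lower, and without 5 µM replicate 2 the counts were 4 and 0, against 4 and 1 without 5 µM replicate 1. ECI1, an enoyl-CoA isomerase, went from 5.33 and 5.34 to 5.76 and 5.81 log2 CPM (log2 fold change 0.45 ± 0.052 (SE), adjusted p = 9.88e-06), HSD17B10 rose by 0.28 and HADH by 0.36, which was 0.22 without control replicate 1. CPT1A, the rate-limiting carnitine palmitoyltransferase, fell by 0.20, a call lost without 5 µM replicate 2 (-0.18). Of 36 peroxins and peroxisomal lipid enzymes 8 were higher and 1 lower. FAR1, which makes fatty alcohols for ether lipids, went from 6.62 and 6.77 to 6.97 and 7.06 log2 CPM (0.32 ± 0.052, adjusted p = 0.000284). IDE, a peptidase gene counted in this list, rose by 0.29, and PEX5, the import receptor, rose by 0.25. PEX14, its docking partner, fell by 0.29.

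Genes of lipid synthesis went both ways. Of 34 cholesterol genes 6 were higher and 6 lower (9 and 3 with library totals, 2 and 2 without 5 µM replicate 1, 3 and 2 without 5 µM replicate 2). EBP, the sterol isomerase, went from 7.46 and 7.47 to 7.16 and 7.07 log2 CPM (-0.35 ± 0.044, adjusted p = 2.5e-05), STARD4, a sterol carrier, went from 4.52 and 4.51 to 4.92 and 4.98 log2 CPM (0.43 ± 0.060, adjusted p = 6.76e-05), and MSMO1, a sterol methyl oxidase, rose (0.34 ± 0.053, adjusted p = 0.000181). Of 36 genes of fatty acid synthesis and elongation 5 were higher and 5 lower (8 and 3 with library totals, 8 and 8 without control replicate 2, 3 and 2 without 5 µM replicate 1, 2 and 1 without 5 µM replicate 2), with ELOVL5 at -0.31, HSD17B12 at 0.24 and HACD2 at 0.29. For HACD2, the change was 0.19 without control replicate 1. FASN, the fatty acid synthase, was at -0.10 and not called. Of 18 steroid hormone genes 2 were higher and 1 lower. FDX1, the electron donor of the steroidogenic enzymes, went from 2.99 and 3.24 to 3.58 and 3.68 log2 CPM (0.52 ± 0.097, adjusted p = 0.000885), POR fell by 0.25, and FDXR rose by 0.18, a call lost without control replicate 2 (0.12) or either 5 µM library (0.16 and 0.20).

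Xenobiotic receptor targets numbered 20, with 3 higher and 2 lower (4 and 1 with library totals, 2 and 1 without 5 µM replicate 1, 1 and 1 without 5 µM replicate 2). CYP2S1, a cytochrome P450, went from 8.27 and 8.22 to 7.77 and 7.72 log2 CPM (log2 fold change -0.50 ± 0.041 (SE), adjusted p = 3.17e-07), while TIPARP, a repressor of the aryl hydrocarbon receptor, went from 2.64 and 2.60 to 3.15 and 3.18 log2 CPM (0.54 ± 0.099, adjusted p = 0.000718). GSTP1 rose by 0.16, a call lost without control replicate 2 (0.10) or either 5 µM library (0.14 and 0.18). CYP1A1 stood at -0.49 and -0.74 log2 CPM in the controls and -0.99 and -0.41 with 5 µM PFOS and was not called, and this classic target of the receptor lay under 1 CPM.

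Stress pathways showed small changes on both sides. Of 27 NRF2 targets 8 were higher and 5 lower (8 and 3 with library totals), and without 5 µM replicate 2 there were 3 and 3, as there were without replicate 1. The 3 with the smallest p fell. FTH1, the ferritin heavy chain, went from 10.26 and 10.27 to 9.77 and 9.80 log2 CPM (log2 fold change -0.48 ± 0.038 (SE), adjusted p = 2.64e-07), and TKT (-0.29) and PGD (-0.29) are enzymes of the pentose phosphate pathway. HMOX1 rose by 0.28 and PRDX1 by 0.22. Of 32 genes of the integrated stress response and serine synthesis 10 were higher and 2 lower, or 6 and 2 without 5 µM replicate 2. MTHFD2, a mitochondrial folate enzyme, went from 6.57 and 6.64 to 6.96 and 6.99 log2 CPM (log2 fold change 0.38 ± 0.044 (SE), adjusted p = 1.42e-05). The 2 lower members were ATF5, from 5.22 and 5.15 to 4.51 and 4.51 log2 CPM (log2 fold change -0.68 ± 0.063 (SE), adjusted p = 1.23e-06), and PPP1R15A, the phosphatase subunit that ends the response, at -0.47.

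Of 25 genes of the endoplasmic reticulum stress response 4 were higher and 7 lower, with a median of 0.0030. There were 2 and 5 without either 5 µM library, and 8 and 7 without control replicate 2. MANF, a secreted stress factor, went from 7.86 and 7.86 to 7.46 and 7.50 log2 CPM (-0.38 ± 0.040, adjusted p = 5.04e-06). CALR, the lectin chaperone calreticulin, fell by 0.33, HYOU1 by 0.30 and HSPA5, the BiP chaperone, by 0.16, which was lost without either 5 µM library (-0.15 and -0.17), while the transcription factor XBP1 rose by 0.25. Scaling by library totals turned the count to 8 higher and 7 lower. Of 30 heat shock and metallothionein genes 7 were higher and 5 lower (11 and 5 with library totals). MT2A, a metallothionein, went from 8.18 and 8.20 to 7.64 and 7.68 log2 CPM (log2 fold change -0.53 ± 0.042 (SE), adjusted p = 2.35e-07), while MT1H, a close copy of its family, rose by 0.52. HSPA8, the constitutive HSP70, fell by 0.30 and HSPB1 by 0.39, against the rise of HSPE1 and HSPD1 above.

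Of 45 nuclear genes of the respiratory chain and ATP synthase 20 were higher and 8 lower, with a median of 0.12, and the counts were 14 and 7 without 5 µM replicate 2. NDUFA2 of complex I went from 4.66 and 4.69 to 5.21 and 5.18 log2 CPM (log2 fold change 0.52 ± 0.057 (SE), adjusted p = 6.34e-06) and COX6A1 of complex IV from 5.90 and 5.86 to 6.31 and 6.29 log2 CPM (log2 fold change 0.42 ± 0.047 (SE), adjusted p = 8.88e-06), while NDUFB10, also of complex I, went from 7.70 and 7.64 to 7.33 and 7.34 log2 CPM (log2 fold change -0.33 ± 0.041 (SE), adjusted p = 2.35e-05). Members of a single complex thus lay on both sides. Of 26 glycolysis genes 7 were higher and 5 lower (12 and 4 with library totals, 3 and 4 without 5 µM replicate 1). Beside ALDOA, PKM, the pyruvate kinase, went from 11.18 and 11.15 to 10.86 and 10.85 log2 CPM (-0.31 ± 0.040, adjusted p = 2.9e-05), and LDHB, a lactate dehydrogenase, went from 10.64 and 10.65 to 10.98 and 11.07 log2 CPM (0.38 ± 0.042, adjusted p = 6.37e-06). Of 40 hypoxia-inducible factor targets 6 were higher and 3 lower (11 and 0 with library totals, 6 and 0 without 5 µM replicate 2), with PLOD2 (0.40), the glucose transporter SLC2A3 (0.28) and P4HA1 (0.28) higher. VEGFA was at -0.10 and not called.

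Genes of the dividing cell were mostly higher where called, at low GC content. Of 39 genes of homologous recombination 16 were higher and 2 lower (21 and 0 with library totals, median GC 41.7%), and without 5 µM replicate 2 there were 8 and 0, against 9 and 0 without replicate 1. RAD51AP1, which promotes strand exchange in this repair, went from 6.54 and 6.56 to 7.08 and 7.12 log2 CPM (log2 fold change 0.55 ± 0.043 (SE), adjusted p = 2.53e-07), RMI1 rose by 0.40 and the nuclease gene DNA2 by 0.34. Of 48 kinetochore and spindle checkpoint genes 19 were higher and 4 lower (29 and 2 with library totals, median GC 42.1%), or 11 and 3 without replicate 2 and 9 and 2 without replicate 1. PLK1, a mitotic kinase, fell, from 8.57 and 8.50 to 8.14 and 8.15 log2 CPM (log2 fold change -0.39 ± 0.040 (SE), adjusted p = 3.69e-06), while SGO2, a guardian of centromere cohesion, rose, from 5.16 and 5.25 to 5.63 and 5.71 log2 CPM (log2 fold change 0.47 ± 0.056 (SE), adjusted p = 1.51e-05), and CENPK rose by 0.45. With the GC trend removed the counts were 14 and 4 for recombination and 20 and 8 for the kinetochore. Without the variance trend they were 7 and 0 for recombination and 5 and 2 for the kinetochore.

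Of 53 DNA replication genes 13 were higher and 4 lower (21 and 2 with library totals), or 7 and 1 without 5 µM replicate 2, 8 and 2 without replicate 1 and 19 and 7 without control replicate 2. The clamp loader subunits RFC4 and RFC3 parted, RFC4 going from 5.94 and 5.94 to 5.50 and 5.55 log2 CPM (-0.41 ± 0.051, adjusted p = 1.99e-05) and RFC3 from 4.62 and 4.60 to 5.02 and 5.00 log2 CPM (0.40 ± 0.059, adjusted p = 0.000117), and RPA3 of the single-strand binding complex rose by 0.50. Of 28 genes of glycosylphosphatidylinositol (GPI) anchor synthesis 12 were higher and 2 lower, with a median of 0.20, and without 5 µM replicate 2 there were 5 and 2, against 4 and 1 without replicate 1. PIGT (-0.31), PIGK (0.26, lost without 5 µM replicate 2 at 0.23) and GPAA1 (0.26) are subunits of the transamidase that attaches the anchor. Of 16 replication-dependent histone genes 2 were higher and 2 lower, at a median level of -0.18 log2 CPM, and 0 and 1 without 5 µM replicate 2. HIST1H2BD fell by 0.43, HIST1H1C rose by 0.33, which was lost without 5 µM replicate 2 (0.30), and HIST1H2AC rose by 0.59, which was lost without either 5 µM library (0.52 and 0.66).

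Of 31 p53 targets 10 were higher and 3 lower (14 and 1 with library totals), falling to 3 and 1 without 5 µM replicate 2 and to 4 and 1 without 5 µM replicate 1. ZMAT3, an RNA-binding protein, rose from 5.32 and 5.49 to 5.71 and 5.73 log2 CPM (0.31 ± 0.059, adjusted p = 0.00101) and TRIAP1 rose by 0.27. CDKN1A, the cell cycle inhibitor, stood at 5.63 and 5.57 log2 CPM in the controls and 5.62 and 5.58 with 5 µM PFOS and was not called. Without the variance trend the counts were 0 and 1 for p53 targets, and 0 and 0 for the apoptosis genes given next. Of 33 apoptosis genes 4 were higher and 4 lower (12 and 1 with library totals, 3 and 1 without control replicate 1, 1 and 1 without either 5 µM library). The survival gene BCL2L1 fell by 0.20, and BBC3 fell by 0.21, which was lost without control replicate 1 (-0.11) or either 5 µM library (-0.25 and -0.18).

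Immediate early genes are switched on by growth factor signaling within minutes. Of 30 such genes 9 were lower and 3 higher, with a median of -0.11, and without 5 µM replicate 2 there were 7 and 2. FOSL1 went from 6.41 and 6.40 to 5.93 and 5.79 log2 CPM (log2 fold change -0.54 ± 0.055 (SE), adjusted p = 3.14e-06), and SPRY4, a feedback inhibitor of this signaling, went from 8.49 and 8.42 to 8.08 and 8.02 log2 CPM (log2 fold change -0.41 ± 0.042 (SE), adjusted p = 3.76e-06). JUND went the other way, from 6.43 and 6.33 to 6.89 and 6.87 log2 CPM (log2 fold change 0.50 ± 0.049 (SE), adjusted p = 2.07e-06). The next 3 genes were chosen after their values were seen. EGR1, a zinc finger factor of serum response, went from 3.98 and 3.87 to 3.12 and 3.07 log2 CPM (log2 fold change -0.83 ± 0.087 (SE), adjusted p = 4.56e-06) and ZFP36, which destabilises mRNAs, from 3.43 and 3.04 to 2.54 and 2.46 log2 CPM (-0.73 ± 0.12, adjusted p = 0.000344). SRF, the serum response factor that acts through CArG boxes, went from 7.20 and 7.16 to 6.94 and 6.90 log2 CPM (-0.25 ± 0.043, adjusted p = 0.000412). For these 3 genes both treated libraries lay below both controls.

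The 250 bases before the starts of EGR1 (chr5:138465229-138465478, plus strand, GRCh38.p14, RefSeq) and SRF (chr6:43171019-43171268, plus strand) are printed because both genes fell and because each window holds 2 CArG boxes, which are in capitals.

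EGR1: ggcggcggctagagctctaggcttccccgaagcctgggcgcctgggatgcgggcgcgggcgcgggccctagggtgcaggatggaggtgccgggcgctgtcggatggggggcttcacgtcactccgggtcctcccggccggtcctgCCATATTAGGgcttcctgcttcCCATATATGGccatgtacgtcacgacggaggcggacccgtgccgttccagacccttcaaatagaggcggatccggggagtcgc

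SRF: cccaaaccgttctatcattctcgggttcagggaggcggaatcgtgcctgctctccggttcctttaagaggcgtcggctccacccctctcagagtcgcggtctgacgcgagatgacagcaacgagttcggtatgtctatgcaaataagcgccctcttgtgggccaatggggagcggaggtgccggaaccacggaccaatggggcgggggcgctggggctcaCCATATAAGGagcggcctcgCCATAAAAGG

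The CArG box was searched on both strands and is present in 1.14% of 27305 promoter windows of this length. Of the 21 immediate early genes with a promoter entry, EGR1 and SRF were the 2 with a match in this window. Bases farther from the start were not searched, so a gene without a match here, such as FOS (0.12, not called), may hold a box elsewhere. Called genes without a match lay on both sides, with ZFP36 (-0.73) and SPRY4 (-0.41) lower and JUND (0.50) higher. Whether genes with a box fell more than others was not tested. A match is a description of the letters only.

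Of 32 interferon-induced genes 3 were higher and 4 lower (4 and 3 with library totals). IFITM2 went from 6.85 and 6.71 to 6.44 and 6.38 log2 CPM (-0.37 ± 0.051, adjusted p = 6.96e-05) and IFITM3 fell by 0.30, 2 membrane proteins that block virus entry with shared sequence, while ISG15 went from 3.99 and 3.90 to 4.35 and 4.32 log2 CPM (0.39 ± 0.071, adjusted p = 0.000697). Of 36 collagen, matrix and mesenchymal genes 8 were higher and 3 lower (16 and 2 with library totals), or 2 and 1 without 5 µM replicate 2 and 14 and 4 without control replicate 2. TGFB1, the growth factor, went from 5.09 and 5.00 to 4.60 and 4.67 log2 CPM (-0.41 ± 0.064, adjusted p = 0.000199), COL18A1 rose by 0.28, and FBN2, a fibrillin, by 0.33, which was 0.19 without control replicate 1. Without the variance trend the collagen, matrix and mesenchymal list had 0 higher and 1 lower.

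The 10 nM libraries share the controls with this comparison, and their values are given side by side. Both changes subtract the same control values, so a deviation of the controls moves both alike. The genes given next were all named for the 5 µM comparison, so their agreement is partly built in. Whether the controls differ from the PFOS libraries for a reason other than PFOS was not tested. The log2 fold changes with 10 nM and 5 µM PFOS were 1.74 and 1.68 for EEF1A1P5, 1.12 and 1.09 for HSPE1, -1.44 and -1.28 for ALDOA, -0.86 and -0.89 for UTF1, -0.65 and -0.70 for PCGF2, -0.74 and -0.76 for RPL28 and -0.68 and -0.83 for EGR1. Against the controls 4298 genes (25.7%) were called at 10 nM. Compared directly, 0 genes differed between 5 µM and 10 nM at an adjusted p of 0.05 in limma and 0 in limma-voom, and 552 (3.31%) had an unadjusted p under 0.05. The fits without control replicate 1 and without control replicate 2 called 1 gene each, and the fit without 5 µM replicate 1 called 59. The doses were not separated at this depth and number of libraries, which does not show that they act alike. The median over genes of the 95% interval was ± 0.17 on the log2 scale. The difference, 5 µM minus 10 nM, was -0.031, 95% interval -0.21 to 0.15, for HSPE1, -0.028, 95% interval -0.15 to 0.10, for UTF1, -0.14, 95% interval -0.33 to 0.041, for EGR1, and -0.96, 95% interval -1.71 to -0.21, for RPS3AP47, the last with 5 µM replicate 2 below all others.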

How the data were processed

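RNA of 6 libraries of 2102EP cells was used. The authors made stranded mRNA libraries and used Trimmomatic for trimming, STAR for alignment and featureCounts for the reads of each gene. The build is GRCh38.p14 per the labels, and the methods name another patch of GRCh38. The values were deposited as log2 CPM after a prior count of 3 reads, with whole reads recovered for 100% of values (within 0.1 read) from their spacing. The 4 rows without a name held at most 0.00044% of reads, and 13 date-like names were not named in the text. Libraries held 33.3 to 48.7 M reads. The methods state 4-fold biological replication, whereas the series holds 2 EP libraries a group, and all of these were analysed here.

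The log2 CPM values of all 6 libraries entered a single linear model (R 4.3.3, limma 3.58.1, lmFit and eBayes with trend), and p-values were adjusted by Benjamini-Hochberg over 16694 genes at 0.05, two-sided. The fit was checked on simulated data. Symbols were matched to RefSeq (15750 by symbol, 419 by an older one), and 15494 rows to GENCODE 44 transcripts. The genes compared and the lists were chosen with earlier results of these data known. Genes were named by rule: 12 genes in each direction, ranked by size of change among called genes that averaged 1 log2 CPM or more and whose treated libraries lay on 1 side of both controls, the 3 members of each list with the smallest p, PPAR, polycomb repressive complex 2 and DNA methyltransferase genes, and cell type markers. Some genes that this rule names are not reported here. Other genes were picked after their values were seen. Alternatives were the fits given in the closing section. GC correction, thinned reads and leaving out pseudogenes were added after seeing the data.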

Additional observations from a re-analysis of the deposited data

How the results depend on the processing

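Of the counts above, those of genes called, called higher and called lower stayed within 1.5 times their values of 4484, 2207 and 2277 with limma-voom on recovered reads, with only the 4 libraries compared, with a replicate block, with other filters, pseudocounts and scalings, without control replicate 1 or 2, with GC correction, with thinned reads and without pseudogenes. Dropping the level filter could not change these counts, since it removed no gene. Without a variance trend the calls were 1567 (690 higher, 877 lower, 135 list members). Against a 1.2-fold change they were 294 (71 higher, 223 lower, 30 list members, and 1112 at unadjusted p under 0.05). Leaving out a library gave 2223 to 5051 calls, 989 to 2660 higher, 1234 to 2391 lower, 219 to 430 list members, 4418 to 6683 genes at unadjusted p under 0.05, and 0 to 59 for 5 µM against 10 nM.

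The replicate numbers did not pair the libraries (correlations of same-numbered deviations 0.022, -0.052 and 0.025), and the replicate block gave 4749 calls, 2350 of them higher. Of 146 named genes, some uncalled ones near 0 changed sign. With library totals PDPN was at 0.0030, PRDM14 at 0.021, SALL4 at 0.046 and PPARA at 0.042. With GC correction, alone or with the replicate block, PRDM14 was at 0.013, SALL4 at 0.028 and PPARA at 0.010, and with thinned reads PPARA was at 0.019. Over fits without a library LIN28A ranged from -0.0094 to 0.064, GATA4 -0.20 to 0.088, STAR -0.20 to 0.21, PRDM14 -0.068 to 0.015, SUZ12 -0.12 to 0.0029, AMH -0.33 to 0.22, SALL4 -0.017 to 0.015 and PPARA -0.10 to 0.10. The causes were not tested. With 2 libraries a group, depth following the treatment and 3 residual degrees of freedom, small changes of genes near 1 CPM are the least certain.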

Other observations

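Classes of RNA other than mRNA are given beside 13.2% of all genes called higher and 13.6% lower. These shares moved with level, since 2.85% of protein-coding genes in the lowest level quintile were higher and 3.52% lower. The classes were not matched for level. Of 1299 long noncoding RNAs 41 (3.16%) were called higher and 102 (7.85%) lower, with a median log2 fold change of -0.031. Of 66 small nucleolar RNAs 6 (9.09%) were higher and 2 (3.03%) lower, with a median of 0.19, and the controls themselves lay 0.098 above and below their mean. Of 13 mitochondrial transfer RNAs 1 (7.69%) was higher and 6 (46.2%) lower, with a median of -0.37 (5 µM) and -0.45 (10 nM). By library, their medians against the control mean were -0.25 and -0.38 with 5 µM PFOS and -0.69 and -0.25 with 10 nM. Those of the small nucleolar RNAs were 0.23 and 0.19 with 5 µM PFOS and 0.056 and 0.42 with 10 nM. The libraries were prepared for mRNA, so the levels of these 2 classes are uncertain.

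Some genes with small p outside the lists were named after their values were seen. CCNK, the cyclin partner of CDK12, went from 8.17 and 8.16 to 7.31 and 7.27 log2 CPM (log2 fold change -0.87 ± 0.042 (SE), adjusted p = 6.79e-09, limma). POLR2A, the largest subunit of RNA polymerase II, went from 10.03 and 10.06 to 9.39 and 9.34 log2 CPM (log2 fold change -0.68 ± 0.047 (SE), adjusted p = 8.88e-08). Both were lower in both treated libraries. IGF2, an imprinted growth factor, went from 1.99 and 1.76 to 0.87 and 0.84 log2 CPM (-1.03 ± 0.17, adjusted p = 0.000398), and IPW, a noncoding RNA of the imprinted Prader-Willi region, went from 5.45 and 5.35 to 6.12 and 6.16 log2 CPM (log2 fold change 0.74 ± 0.052 (SE), adjusted p = 9.43e-08). HNRNPA1P38, a pseudogene of a splicing factor, had 5 and 6 reads in the controls and 75 and 97 with 5 µM PFOS.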
